A study of Homo sapiens with 3 samples.

Results

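The genes described here encode intermediate filament proteins: the keratins KRT8, KRT18 and KRT10, the type III filament protein vimentin (VIM), and the nuclear lamins LMNA, LMNB1 and LMNB2. They were chosen by gene name, and the list was drawn up with values of this table known. Which values guided the choice is not recorded, so all levels and all pA use of these genes are given as descriptions. The table listed 6 of the 7 genes, with 20 of its 31565 cleavage and polyadenylation sites (pAs) and 6 of its 9431 genes. It held no row for VIM, which is not analysed here.

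RKO is an established human cell line from a poorly differentiated colon carcinoma. Nuclear RNA was sequenced by 3ʹREADS, in which each read marks the 3ʹ end of a polyadenylated RNA, so that read numbers do not depend on the length of the transcript. The 3 libraries came from RKO cells at baseline (UV 0 h) and from RKO cells that recovered for 0.5 h (UV 0.5 h) or 2 h (UV 2 h) after UV irradiation. There was 1 library per time point and no replicate, so every comparison is between 2 libraries, and time, library and culture cannot be told apart. Values are RPM, read numbers scaled by the authors to the size of the library, and 1 read corresponded to 2.31, 1.99 and 2.28 RPM at 0, 0.5 and 2 h. The libraries held 433261, 501838 and 438040 reads. Intervals are exact 95% intervals. They cover the counting error of reads alone, and not variation between cultures or libraries. Several reads can be copies of 1 molecule, so the intervals can be too narrow even for counting error. Of 10 markers of colon epithelium, 2 had rows, EPCAM with 7, 6 and 0 reads at 0, 0.5 and 2 h and CDX1 with 1, 0 and 0 reads. None of the markers of fibroblasts (0 of 8), leukocytes (0 of 4) or endothelium (0 of 3) had a row.

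Keratins of simple epithelia form filaments from pairs of 1 type I and 1 type II protein, and KRT18 (type I) and KRT8 (type II) are such partners. Lamins line the inside of the nuclear membrane. The gene LMNA gives lamin A and lamin C, whose mRNAs have different 3ʹ ends, whereas lamin B1 and lamin B2 come from the separate genes LMNB1 and LMNB2. KRT10 is known as a keratin of differentiating epidermis, and vimentin is the filament protein of mesenchymal cells.

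All 6 genes had few reads. Together they held 30, 45 and 59 reads at 0, 0.5 and 2 h (69.2, 89.7 and 134.7 RPM). Over the 3 libraries, LMNA had 49 reads, LMNB2 40, KRT8 34, KRT18 9, and KRT10 and LMNB1 1 read each. The first 3 of these lay above the median of 18 reads for a gene of the table. No member reached 100 reads in each library, which the rule for naming genes with a similar time course required, so no such genes are named. Of the 20 pAs, 13 were intronic and 7 lay in 3ʹ-most exons, and none was assigned to an upstream exon.

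**Figure D1:**
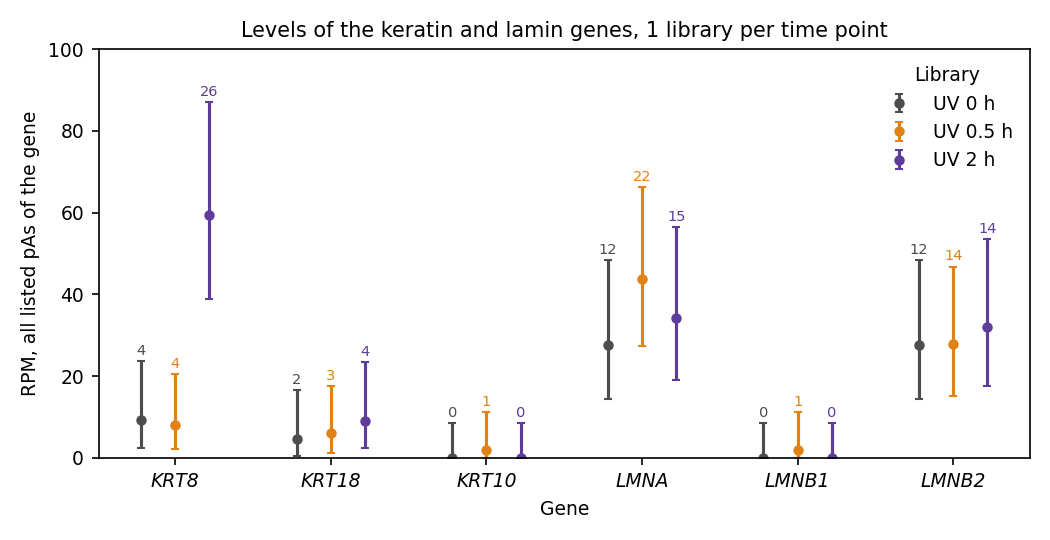
RPM over all listed pAs of each gene (y axis) for the 6 genes with rows (x axis), 1 library per time point; points are the values, bars are exact 95% Poisson intervals, and the numbers above the bars are reads. KRT8 at 2 h, with 26 reads, is the only point whose interval lies apart from those of the same gene at the other times.

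KRT8 had the clearest difference between libraries. At 0, 0.5 and 2 h it had 4, 4 and 26 reads, that is 9.23 RPM (95% interval 2.52–23.6), 7.97 RPM (2.17–20.4) and 59.4 RPM (38.8–87.0). The 2 h library was high, and the 0 and 0.5 h libraries were low and alike within counting error. The RPM ratio of 2 h to 0.5 h was 7.45 (95% interval 2.58–29.4), and that of 2 h to 0 h was 6.43 (2.23–25.3). Both ratios use the same 2 h library and are not independent. Genes with at least 20 reads over the 2 libraries were counted as past 2-fold when the log2 RPM ratio was above 1 or below -1. KRT8 was higher by this rule in both windows, against 13.1% of 3658 genes in the 0.5–2 h window and 12.2% of 3585 genes in the 0–2 h window. In the 0.5–2 h window, 38 of the 3658 genes had a larger ratio than KRT8. KRT8 reached 20 reads only through the 2 h library, where it was high, so nothing is read from this call or rank.

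Every KRT8 read came from an intronic pA. The table used here held no 3ʹ-most-exon pA of KRT8, so these values give intronic 3ʹ ends assigned to KRT8 and not its full-length mRNA, and no intron-APA test was possible. The 7 intronic pAs lay on the minus strand of chromosome 12 between positions 53334262 and 53342434 (hg19). The one nearest to KRT18, at 53342434, had 3, 4 and 10 reads in the order of the times. The pA at 53341925 had 1, 0 and 8 reads, and the pA at 53340398 had 0, 0 and 3 reads. The other 4 pAs had reads at 2 h but not at 0 or 0.5 h, with 1 or 2 reads each. Reads were thus found at 2 of the 7 pAs before UV, at 1 after 0.5 h and at all 7 after 2 h. A pA can be listed through its 2 h reads alone, so the last count was partly fixed by the listing. Outside the members, 3713, 3806 and 7093 of 11545 intronic pAs had reads at 0, 0.5 and 2 h. This leaves aside 410 with a listed opposite-strand pA within 10000 bases behind them. Without the pA at 53342434, KRT8 had 1, 0 and 16 reads, which is at least 6.11-fold higher at 2 h than at 0.5 h when 0 is set to a floor of 3 reads in the library. This alternative was chosen after the data were seen, and under it KRT8 no longer had the 20 reads needed to be counted.

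KRT18 lies next to KRT8 on chromosome 12, on the plus strand, and the spans of both genes overlap in RefSeq (GRCh38). In the deposited hg19 positions, the 7 KRT8 pAs lay 950 to 9122 bases before the first listed KRT18 pA, at 53343384, and 6 of them within 2986 bases. All of these minus-strand 3ʹ ends therefore lay on the side from which KRT18 is transcribed. The deposited positions carry the strand, but the assignment to KRT8 is that of the authors, and a transcript of its own from this region cannot be told apart from an intronic 3ʹ end of a long KRT8 transcript.

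**Figure D2:**
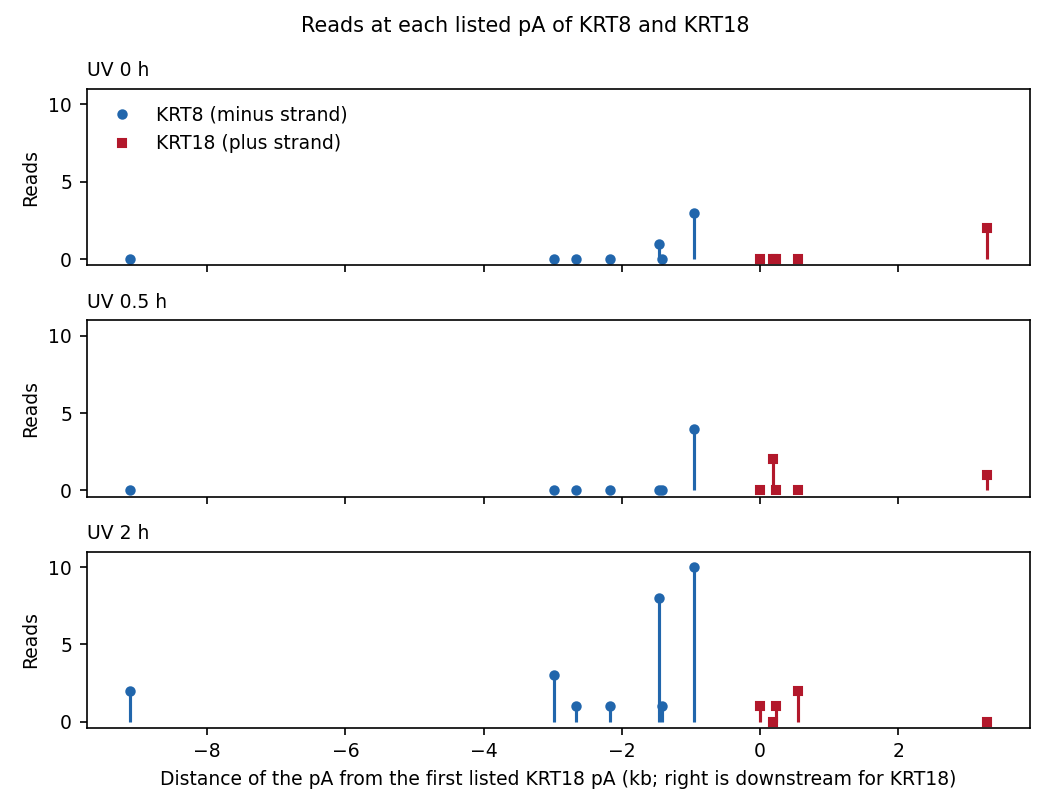
Reads (y axis) at each listed pA of KRT8 (blue circles, minus strand) and KRT18 (red squares, plus strand) against the distance in kb from the first listed KRT18 pA (x axis), 1 panel per library. At 2 h all 7 KRT8 pAs have reads and the 3ʹ-most-exon pA of KRT18 has 0, whereas at 0.5 h 1 KRT8 pA has reads.

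KRT18, the partner of KRT8, had 2, 3 and 4 reads in the 3 libraries (4.62, 5.98 and 9.13 RPM). These levels did not differ beyond counting error, with a ratio of 2 h to 0.5 h of 1.53 (95% interval 0.258–10.4). The few reads are given here by kind of pA. The single 3ʹ-most-exon pA, at 53346664, had 2, 1 and 0 reads. The 4 intronic pAs, 2735 to 3280 bases upstream of it, had together 0, 2 and 4 reads. The intronic share was thus 0% of 2 reads at 0 h (95% interval up to 84.2%), 66.7% of 3 reads at 0.5 h (9.43–99.2%) and 100% of 4 reads at 2 h (39.8–100%). These intervals overlapped, so no difference in the kind of pA was shown. With so few reads no window could reach p below 0.05 in Fisher's exact test, so no result of that test is given for KRT18. The intronic reads of both keratins together were 4, 6 and 30, of which KRT8 gave 4, 4 and 26. KRT8 and KRT18 reads stood at a ratio of 6.5 (95% interval 2.26–25.6) at 2 h, and of 1.33 (0.226–9.10) at 0.5 h, so the intervals overlapped. Since KRT8 was counted only at intronic pAs, this is not a ratio of the mRNAs of the partners.

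KRT8 and KRT18 have many processed pseudogenes, of which RefSeq lists 52 and 68. The table held 0 rows named for them, and how reads that fit several copies were placed is not given in the sources used here. The 3ʹ-most-exon value of KRT18 is therefore uncertain. KRT10 had 1 read in all, at 0.5 h, at position 38974372 of chromosome 17 (hg19, minus strand), in the 3ʹ-most exon. The upper limits of the intervals for its 0 reads were 8.51 RPM at 0 h and 8.42 RPM at 2 h, above its 1.99 RPM at 0.5 h, so no difference was detectable.

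LMNA had the most reads of the 6 genes over the 3 libraries. It had 12 reads at 0 h (27.7 RPM, 95% interval 14.3–48.4), 22 at 0.5 h (43.8 RPM, 27.5–66.4) and 15 at 2 h (34.2 RPM, 19.2–56.5). The 0.5 h library was the highest, but the intervals of all 3 overlapped. The ratio of 0.5 h to 0 h was 1.58 (0.750–3.51) and that of 2 h to 0.5 h was 0.781 (0.377–1.58).

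Most LMNA reads ended at 1 intronic pA, at position 156107657 of chromosome 1 (hg19, plus strand), 2215 bases upstream of the 3ʹ-most-exon pA at 156109872. The intronic pA had 10, 16 and 12 reads in the 3 libraries, and the 3ʹ-most-exon pA had 2, 5 and 3 reads. A second intronic pA, 46270 bases upstream of the 3ʹ-most-exon pA, had 1 read, at 0.5 h. The intronic share was 83.3% before UV (95% interval 51.6–97.9%), 77.3% after 0.5 h (54.6–92.2%) and 80% after 2 h (51.9–95.7%). It was high in all 3 libraries, and no window showed a change (p = 1 in each, two-sided Fisher's exact test). The intervals are wide, so a moderate change would not have been detectable. Lamin C mRNA is known to end upstream of the last exon of LMNA, but no transcript annotation of the files' build was used, and the pA at 156107657 was not matched to it.

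LMNB2 was even across the libraries, with 12 reads at 0 h (27.7 RPM, 95% interval 14.3–48.4), 14 at 0.5 h (27.9 RPM, 15.3–46.8) and 14 at 2 h (32.0 RPM, 17.5–53.6). The ratio of 2 h to 0.5 h was 1.15 (0.506–2.59). All of its reads came from 3 pAs in the 3ʹ-most exon, on the minus strand of chromosome 19 (hg19). The proximal pA, at 2430846, had 6, 8 and 9 reads at 0, 0.5 and 2 h. The pA 878 bases further downstream, at 2429968, had 3, 6 and 5 reads. The most distal pA, 2682 bases downstream of the proximal one, had 3 reads at 0 h and 0 reads at 0.5 and 2 h, with upper limits of 7.35 and 8.42 RPM beside 6.92 RPM (1.43–20.2) at 0 h, so no difference was detectable there. For 3ʹUTR-APA, the 2 most abundant pAs were compared, which left out the most distal pA. Together they had 9, 14 and 14 reads, so a moderate change in their shares would not have been detectable. The share of the proximal pA was 66.7% before UV (29.9–92.5%), 57.1% after 0.5 h (28.9–82.3%) and 64.3% after 2 h (35.1–87.2%), and no window showed a change (p = 1 in each, two-sided Fisher's exact test).

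LMNB1 had 1 read in all, at 0.5 h, at a 3ʹ-most-exon pA at position 126172002 of chromosome 5 (hg19, plus strand). Its level over listed pAs was below that of LMNB2 at each time, with 0 reads against 12, 1 against 14 and 0 against 14. LMNB1 had 1 listed pA and LMNB2 had 3, and 3ʹ ends at unlisted pAs are not counted. The ratio of LMNB1 to LMNB2 reads at 0.5 h was 0.0714 (95% interval 0.00169–0.469). Among the lamins, LMNA and LMNB2 did not differ beyond counting error in any library, with a ratio of 1 (0.411–2.43) at 0 h, 1.57 (0.769–3.32) at 0.5 h and 1.07 (0.482–2.40) at 2 h. At 2 h the order of the levels was KRT8, LMNA, LMNB2, KRT18, and then KRT10 and LMNB1 at 0 reads. The intervals of neighbours in that order overlapped.

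**Figure D3:**
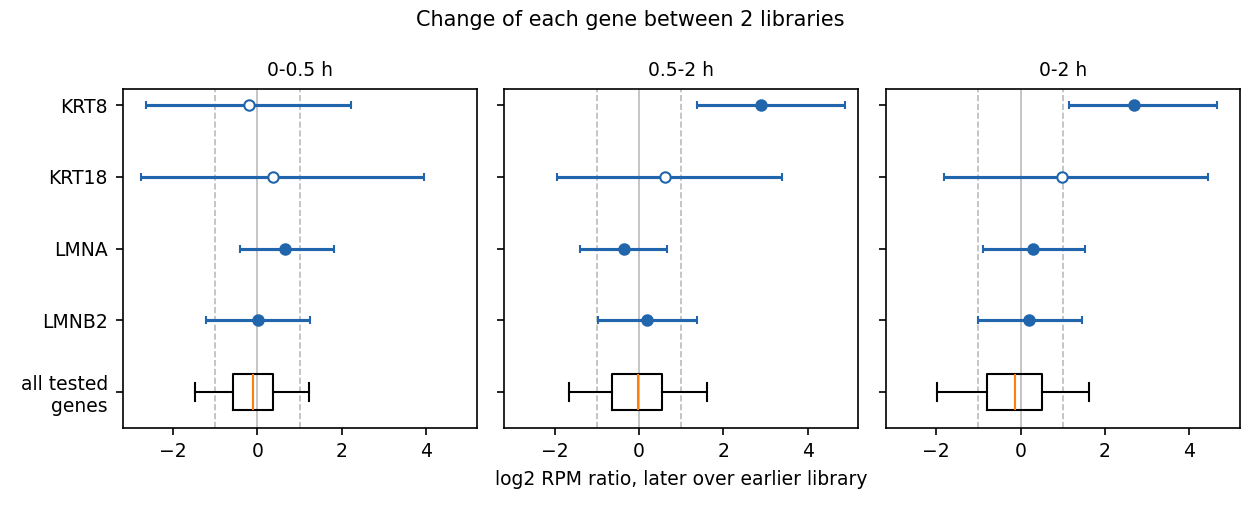
Log2 RPM ratio of the later to the earlier library (x axis) in 3 windows for the 4 genes with reads in every library; bars are exact 95% intervals, open points have fewer than 20 reads over the 2 libraries, dashed lines mark 2-fold, and boxes show all tested genes (quartiles, whiskers from 5% to 95%). The KRT8 ratios of 2 h to 0.5 h and of 2 h to 0 h lie beyond 2-fold, and the intervals of all other plotted ratios include 0.

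Over the windows, 0 of 2 members with at least 20 reads (LMNA and LMNB2) were past 2-fold between 0 and 0.5 h, where 7.89% of 3650 genes were higher and 12.3% lower. In each of the later windows it was 1 of 3, KRT8, which reached 20 reads only through the 2 h library. Among genes that, like KRT8, had intronic but no 3ʹ-most-exon pAs in the table, 19.6% of 97 were higher in the 0.5–2 h window and 24.8% of 101 in the 0–2 h window. The share of such genes that was lower was not counted. There were 1137 such genes in all, and their summed intronic level was 13805, 12257 and 14268 RPM at 0, 0.5 and 2 h. Of them, 24 listed at least 7 intronic pAs, as KRT8 did. Reads at 7 or more intronic pAs were found for 3 of these genes before UV, 2 after 0.5 h and 8 after 2 h, KRT8 being 1 of the 8. The cut of 7 was the number of pAs listed for KRT8, all with reads at 2 h. The place of KRT8 among the 8 was therefore fixed by the cut, and pAs listed through 2 h reads alone raise the count at 2 h. A call for APA required p below 0.05 together with a shift of more than 5 percentage points. For intron-APA, LMNA was not called in any window, whereas 9.34%, 17.7% and 17.0% of all testable genes were called in the 0–0.5, 0.5–2 and 0–2 h windows. For 3ʹUTR-APA, LMNB2 was not called, and 12.2%, 15.5% and 12.6% of all testable genes were. KRT18 had too few reads to be called and KRT8 could not be tested, so these shares are background for 1 gene each and nothing is read from them about the members.

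Other intermediate filament genes were as thinly covered. Of 34 other keratins, 6 had rows, and KRT79 alone had 20 reads in a window. KRT79 had 6, 8 and 19 reads at the 3 times, all in the 3ʹ-most exon, a ratio of 2 h to 0.5 h of 2.72 (95% interval 1.14–7.18). It reached 20 reads only in windows with the 2 h library, where it was high. Between 0.5 and 2 h, 13.1% of all tested genes were past 2-fold higher. KRT7, a keratin of ductal epithelia, had 4, 0 and 0 reads, and KRT17, an epidermal keratin induced on injury, had 0, 0 and 4 reads. KRT6A had 0, 0 and 3 reads. Of 14 other filament genes of types III, IV and VI and their partners, 5 had rows and none reached 20 reads. NES, which encodes the neural progenitor filament protein nestin, had 1, 4 and 3 reads, and BFSP2, a lens filament gene, had 4, 1 and 6 reads, all intronic. SYNC, which encodes syncoilin, had 3, 1 and 2 reads, and IFFO1 had 0, 0 and 3.

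A list of cytoskeletal linker and desmosome genes was better covered. Of 18 listed, 11 had rows. DSG2, a desmosomal cadherin gene, had 107, 75 and 33 reads (247.0, 149.5 and 75.3 RPM), a ratio of 2 h to 0 h of 0.305 (95% interval 0.200–0.454). PKP2, which encodes the desmosomal plaque protein plakophilin 2, had 59, 101 and 47 reads, with a ratio of 2 h to 0.5 h of 0.533 (0.369–0.761). MACF1, a spectraplakin gene that links actin and microtubules, had 28, 6 and 19 reads, and EVPL, which encodes envoplakin, had 20, 19 and 18. In the 0–0.5 h window, 0 of 6 listed genes with enough reads were past 2-fold higher and 2 were lower (MACF1 and FAM83H). In the 0.5–2 h window, 1 of 4 was higher, MACF1 with a ratio of 3.63 (1.39–11.1), and 0 were lower. In the 0–2 h window, 0 of 6 were past 2-fold higher and 2 were lower (DSG2 and FAM83H). Over all genes tested, 7.89% were higher and 12.3% lower between 0 and 0.5 h. Between 0.5 and 2 h, 13.1% were higher and 14.4% lower, and between 0 and 2 h, 12.2% were higher and 19.9% lower. With 4 to 6 listed genes, nothing is read from counts of 0. The median log2 RPM ratio of the tested listed genes was -0.62, -0.39 and -0.70 in the 0–0.5, 0.5–2 and 0–2 h windows. Over all genes tested it was -0.10, -0.03 and -0.12. A gene can reach 20 reads through the library in which it was high, so the tested genes differ between windows. Summed over the 11 listed genes with rows, the reads were 281, 238 and 143 at 0, 0.5 and 2 h.

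Of 23 genes of lamina partners and lamin processing, 20 had rows. ZMPSTE24, the protease that matures prelamin A, had 39, 15 and 16 reads (90.0, 29.9 and 36.5 RPM), and the ratio of 0.5 h to 0 h was 0.332 (95% interval 0.170–0.616). The level was high at 0 h and lower in both later libraries. RCE1, which encodes a protease of CaaX proteins, had 29, 48 and 36 reads, with a ratio of 0.5 h to 0 h of 1.43 (0.883–2.35). TOR1A, which encodes torsin A of the nuclear envelope lumen, had 44, 53 and 19 reads, and its ratio of 2 h to 0.5 h was 0.411 (0.230–0.705). SUN2, which links lamins to the cytoskeleton across the envelope, had 48, 50 and 41 reads. TMPO, the gene of the lamin-binding LAP2 proteins, had 36, 56 and 55 reads, of which 16, 37 and 30 were intronic. Like LMNA, TMPO therefore had many intronic reads in all 3 libraries. In the 0–0.5 h window 0 of 12 genes with enough reads were higher and 3 lower (7.89% and 12.3% over all genes), in the 0.5–2 h window 1 of 10 were higher and 2 lower (13.1% and 14.4% over all genes), and in the 0–2 h window 1 of 13 were higher and 7 lower. The last count stood beside 12.2% higher and 19.9% lower over all genes tested, and the median log2 RPM ratio of the 13 genes was -1.02, beside -0.12 over all genes. Between 0 and 0.5 h the median of the tested genes of the list was -0.10, beside -0.10 over all genes, and between 0.5 and 2 h it was -0.15, beside -0.03. The windows share libraries, so these counts are not independent. A gene can reach 20 reads through the library in which it was high. The tested genes therefore differ between windows, and the medians are not those of the whole list. Summed over all 20 genes with rows, the reads were 365, 348 and 272 at 0, 0.5 and 2 h.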

How the data were processed

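Nuclear RNA of RKO cells at 0, 0.5 and 2 h was profiled by 3ʹREADS (1 library each). The submitters' processing notes name CASAVA and Bowtie2, without versions, and hg19. Reads ending in 2 or more As absent from the genome defined pAs, which the authors labelled by gene and by location (3ʹ-most exon, intron or upstream exon). The authors deposited RPM, scaled to the library total. Clustering of reads into pAs is not given in the sources used here. In each column all values were whole multiples of 1 read, within 4.00e-11 reads, so reads were recovered.

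The genes and lists were chosen with earlier results of these data known. Gene levels were reads over all pAs of a gene, with Poisson intervals. Ratios had exact conditional intervals and shares had Clopper-Pearson intervals (95%). For APA, two-sided Fisher's exact tests were run on all genes, as in the methods of the study, with Benjamini-Hochberg adjustment. Named list genes were the 4 with the most reads per list and those past 2-fold with at least 50 reads in a window. FAM83H, EPCAM and CDX1 were named for small counts or as markers. Alternatives covered scaling, reads counted, read minimums, thinning to 433093 reads, added RPM, adjustment and the pAs compared. Functions were tested on simulated data. RefSeq (GRCh38) served for neighbours and pseudogenes only. The software was Python 3.11.15 with scipy 1.17.1, numpy 2.4.6, matplotlib 3.10.9 and pandas 2.3.3.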

Additional observations from a re-analysis of the deposited data

How the results depend on the processing

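KRT8 depended on which pAs were counted. With 3ʹ-most-exon pAs only, 0 members were past 2-fold in the 0.5–2 h and in the 0–2 h window, since KRT8 has no such pA in the table. Without the KRT8 pA with the most reads, 0 members were past 2-fold in either window, since KRT8 then has fewer than 20 reads. Its log2 RPM ratio was at least 2.61 for 0.5–2 h without that pA. Over the other alternatives it stayed between 2.64 and 2.94 for 0.5–2 h, and over all alternatives between 2.56 and 3.98 for 0–2 h. The other 8 counts past 2-fold under alternatives, and the 22 counts of APA calls (all 0), equalled the reported ones, and 57 log2 ratios, that lower bound included, stayed within the counting intervals of the reported ones. With at least 50 reads no member was left in any window. At these depths the intervals span several-fold for every gene. No paired analysis was possible because each time point has 1 library.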

Other observations

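All 7 KRT8 and all 4 KRT18 intronic pAs had a listed pA of the opposite strand behind them, on the side from which they are transcribed, within 10000 bases, and neither intronic pA of LMNA did. This feature was chosen after the KRT8 positions were seen. Outside the members, 410 intronic pAs (3.43%) had it. Of these, 105 had reads at 0 h, 130 at 0.5 h and 280 at 2 h, a ratio of 2 h to 0.5 h of 2.15. Among the 11545 other intronic pAs, 3713, 3806 and 7093 had reads, a ratio of 1.86. The RPM summed over the 410 pAs was 1851, 1989 and 2904 at 0, 0.5 and 2 h, and that over the others was 66692, 57943 and 81435. By summed RPM the ratio of 2 h to 0.5 h was thus 1.46 for the 410 pAs and 1.41 for the others. The differences between these ratios, by pAs with reads or by RPM, were not tested. A pA can be listed through its 2 h reads alone, so the counts at 2 h and the feature itself were partly fixed by the listing. The counts of pAs with reads were not scaled to the size of the library.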
